A study of Mus musculus with 8 samples.

Results

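Pparg and 9 genes of lipid uptake, transport, synthesis and storage were followed in mouse dendritic cells that had been grown out of bone marrow, with and without lipopolysaccharide (LPS), the bacterial cell wall component that triggers dendritic cell maturation. The genes were chosen by name as Pparg, Srebf1, Fabp4, Fabp5, Lpl, Apoe, Pltp, Plin2, Scd1 and Scd2, and all their probes were taken, which gave 11 probes for 10 of the 20884 genes that the array's transcript accessions named. The LPS group was 4 samples of immature dendritic cells given 50 ng/ml LPS overnight and collected on day 7. The immature group was 4 samples collected on day 6. Both groups came from bone marrow of female C57BL/6 mice, described by the labels as monocytes and as progenitor cells, and both had been grown for 6 days with IL-4 and 10 ng/ml GM-CSF, a growth factor that yields dendritic cells mixed with other myeloid cells. No day 7 sample without LPS was analysed here, so LPS and the further night in culture cannot be told apart. The labels do not say whether the replicates are separate animals or cultures, so p-values measure the spread between these samples, which may be technical.

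PPARγ, the protein made from Pparg, is a nuclear receptor that binds fatty acids and their derivatives and, paired with a retinoid X receptor, switches on genes for taking up, carrying and storing lipid. In the GM-CSF and IL-4 cultures used for dendritic cells it is known as a lipid sensor, and Fabp4 is a widely used readout of its activity. Sterols and fatty acid synthesis are under other regulators: SREBP proteins, of which Srebf1 encodes one, drive synthesis of fatty acids, and the LXR receptors drive sterol export through genes such as Abca1, Apoe and Pltp.

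RNA was measured on one-colour Agilent arrays, and every value below is a log2 level, the log2 signal of a probe minus the 75th percentile of its array, or a log2 difference, the LPS mean minus the immature mean, with its standard error (SE). That percentile was a signal of 392 to 421 on the LPS arrays and 450 to 491 on the immature arrays, and the share of spots well above background was 47.5% to 48.4% against 47.7% to 51.3%. Group means are given ± SD over 4 arrays. The arrays' number limits the precision. Immature replicate 3 stood apart. The log2 differences between 2 arrays were summarised by their median absolute deviation about their own median, scaled as for an SD. This spread was 0.28 to 0.42 between immature replicate 3 and the other immature arrays. It was 0.11 to 0.24 among those other arrays and 0.13 to 0.24 among LPS arrays. The closest pair of each group was replicates 1 and 2, at 0.13 with LPS and 0.11 in immature cells, and averaging those replicates left the calls of the 10 genes unchanged. All arrays lay on 1 slide, with the LPS arrays in one row and the immature arrays in the other, so slide row and treatment cannot be told apart. Much of the transcriptome differed between the groups. Of 12706 genes tested with limma, 56.1% passed an adjusted p of 0.05, 31.4% higher and 24.7% lower with LPS, and 52.4% had no overlap between the groups' arrays. In bulk samples, fewer cells of a type and less RNA per cell cannot be told apart.

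Markers of the labelled cell type were present. All 11 dendritic cell markers were tested, among them Itgax, an integrin subunit, whose log2 level was 6.25 ± 0.11 on LPS arrays and 7.24 ± 0.15 on immature arrays, and H2-Aa, an MHC class II chain, at 6.35 ± 0.16 and 7.11 ± 0.09. Summed markers are given as the log2 of the sum of the tested markers' unlogged levels, so the brightest markers weigh most. The summed dendritic cell markers ran from 10.47 to 10.69 on LPS arrays and from 10.51 to 10.60 on immature arrays, while 3 of the 11 rose and 5 fell. Flt3 and Ccr7 rose most, by 2.65 ± 0.18 and 2.12 ± 0.18. Cd209a fell, and was well above background on 0 of 4 LPS arrays and 4 of 4 immature arrays. Macrophage markers were also present. Adgre1, a macrophage surface receptor, had a log2 difference of 0.93 ± 0.12, whereas Csf1r, the receptor for M-CSF, did not pass at −0.13 ± 0.08 (adjusted p = 0.211). Csf1r passed as lower with the array median as scale (adjusted p = 0.0257), with no scaling (adjusted p = 0.0156) and as the mean of its probes (adjusted p = 0.0357). The summed macrophage markers were 8.44 to 8.68 on LPS arrays against 8.64 to 8.90 on immature arrays. Neutrophil markers fell in 10 of 10 genes tested, with summed levels of 8.24 to 9.01 on LPS arrays against 9.72 to 9.92 on immature arrays, and monocyte markers fell in 4 of 5, at 6.90 to 7.37 against 7.93 to 8.45. Since several of the lipid genes also mark fat cells, markers of adipocytes and stromal cells were read as well. Adipoq, Lep and Plin1, which define adipocytes, were well above background on 0 of 8 arrays, as were Col3a1, Pdgfra and Cxcl12. Only 5 of the 13 adipocyte and stromal markers could be tested, and 3 of them rose. Pdgfrb rose by 1.85 ± 0.30 and Retn by 1.66 ± 0.27. Dcn also rose, and was well above background on 4 of 4 LPS arrays and 1 of 4 immature arrays. The sum of the 5 was 2.11 to 2.36 on LPS arrays against 1.70 to 1.82 on immature arrays. The brightest of them, Lepr, did not pass, at 1.81 ± 0.11 on LPS arrays and 1.66 ± 0.03 on immature arrays. Markers of alveolar macrophages, cells known to depend on PPARγ, moved both ways, with 2 of 6 tested rising and 3 falling. Ear2, a ribonuclease, and Siglecf, a surface lectin, had log2 differences of −2.06 ± 0.31 and −2.05 ± 0.37, close in size to that of Pparg below, and Marco, a scavenger receptor, rose by 3.25 ± 0.24. Their summed level was 8.89 to 9.36 on LPS arrays against 9.14 to 9.34 on immature arrays. Of the B cell, T cell and erythroid markers, 2, 3 and 2 were tested, and of these 0, 1 and 0 rose and 0, 1 and 1 fell. The part of cell mixture in the results below was not tested.

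With LPS, Pparg and Lpl fell while Fabp4, Fabp5 and Pltp rose. Apoe, Plin2, Scd1, Scd2 and Srebf1 did not pass the test. All 10 genes were well above background on all 8 arrays and so all were tested. The 5 calls among 10 genes compare with 56.1% of all tested genes, so the number of calls is close to the background. Their median log2 difference was −0.05, against 0.06 over all tested genes. The same 5 genes were the ones whose LPS and immature arrays did not overlap, a share close to the 52.4% of all tested genes. Among their 11 probes, 6 passed, against 49.7% of the probes tested in a fit over all probes.

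**Figure D1:**
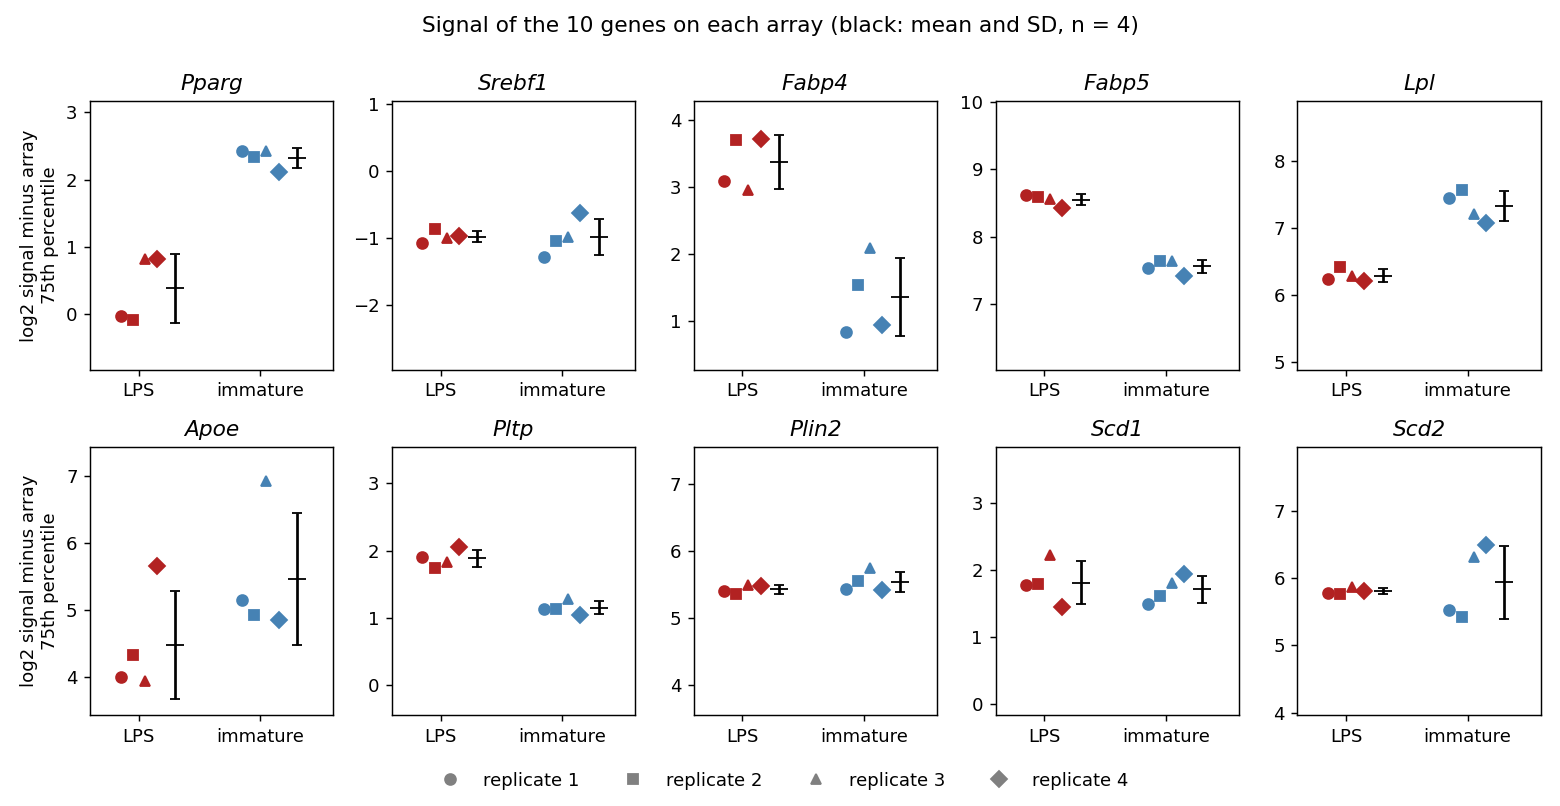
Log2 level (log2 signal minus the array's 75th percentile, vertical axis) of each of the 10 genes on the 4 LPS arrays (left of each panel) and the 4 immature arrays (right), 1 point an array, with the mean and SD beside the points. The groups are apart for Pparg, Fabp4, Fabp5, Lpl and Pltp, and overlap for the other 5 genes, with 1 immature Apoe point at 6.92.

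Pparg was the member with the largest fall, and its promoter sequence is printed because it is the receptor the other genes are read against. RefSeq (GRCm38.p6) gives windows for 5 of the 10 genes, of which Pparg has 3, all on the plus strand of chromosome 6. The 250 bases before each start follow, in the direction of transcription, with the hexamer AGGTCA, the core element that nuclear receptors of this class recognise, in capitals.
Pparg window with the most upstream start, chr6:115360894-115361143: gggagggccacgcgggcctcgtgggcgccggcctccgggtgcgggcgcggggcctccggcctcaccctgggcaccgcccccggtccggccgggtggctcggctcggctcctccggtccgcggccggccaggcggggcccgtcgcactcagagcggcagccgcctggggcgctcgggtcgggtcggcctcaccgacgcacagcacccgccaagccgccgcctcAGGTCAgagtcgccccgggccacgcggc
Pparg window with the middle start, chr6:115362099-115362348: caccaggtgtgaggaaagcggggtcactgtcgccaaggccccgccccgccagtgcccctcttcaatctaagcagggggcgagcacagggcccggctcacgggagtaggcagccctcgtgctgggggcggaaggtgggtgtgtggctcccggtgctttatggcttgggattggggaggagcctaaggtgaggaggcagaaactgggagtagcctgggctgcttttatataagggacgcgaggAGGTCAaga
Pparg window with the most downstream start, chr6:115421816-115422065: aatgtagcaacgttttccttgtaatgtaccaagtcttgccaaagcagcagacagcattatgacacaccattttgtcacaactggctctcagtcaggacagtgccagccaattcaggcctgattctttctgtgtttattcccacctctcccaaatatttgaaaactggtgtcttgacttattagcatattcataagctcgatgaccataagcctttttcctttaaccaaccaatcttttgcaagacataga
The hexamer begins 28 bases before the most upstream start and 9 bases before the middle one, and these letters were not found before the most downstream start. AGGTCA on either strand occurred in 3 of the 11 windows of the members, 2 of Pparg and 1 of Plin2, and in 14.0% of the 32851 RefSeq windows, searched over the same 250 bases before the start. Repeats that contain this hexamer were searched too. The direct repeat AGGTCANAGGTCA, the form bound by PPARγ with its partner, was in 0.0335% of all windows, and the LXR form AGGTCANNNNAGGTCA in 0.0152%. Neither was in a window of the members. The sterol element TCACNCCAC was in 1.05% of all windows and the E-box CACGTG in 6.02%, again in none of the 11. A match is a description of the letters, and the arrays do not read binding.

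Of the regulators, Pparg changed and Srebf1 did not pass. Pparg log2 levels were −0.03, −0.10, 0.82 and 0.82 on LPS arrays 1 to 4, against 2.42, 2.33, 2.43 and 2.11 on immature arrays 1 to 4. The groups did not overlap, and among the LPS arrays replicates 3 and 4 lay above replicates 1 and 2. The mean was 0.38 ± 0.51 with LPS and 2.32 ± 0.15 in immature cells, a log2 difference of −1.94 ± 0.23, or 3.85-fold lower (limma, adjusted p = 0.000218, 95% interval −2.48 to −1.41). By size this was the 337th fall among the 12706 genes. The probe, A_51_P106799 for NM_011146, is printed at 10 spots on each array. Spots flagged as outliers were left out, which kept 6 to 10 of them per array. The SD over the kept spots was 0.051 to 0.084 within an array. The gap between LPS arrays 1 and 2 and LPS arrays 3 and 4 was thus wider than the spread between kept spots. The Pparg SD over LPS arrays exceeded that of 94.3% of tested genes, and over immature arrays that of 40.2%.

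Srebf1 encodes the SREBP1 factor. Its log2 levels ran from −1.07 to −0.87 on the 4 LPS arrays, against −1.29, −1.04, −0.99 and −0.63 on immature arrays. The LPS values lay inside the immature range. The log2 difference was 0.01 ± 0.13 (adjusted p = 0.963, 95% interval −0.30 to 0.31), an interval that holds changes of either sign, and its sign turned negative under 5 other scalings and with replicates 1 and 2 averaged.

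**Figure D2:**
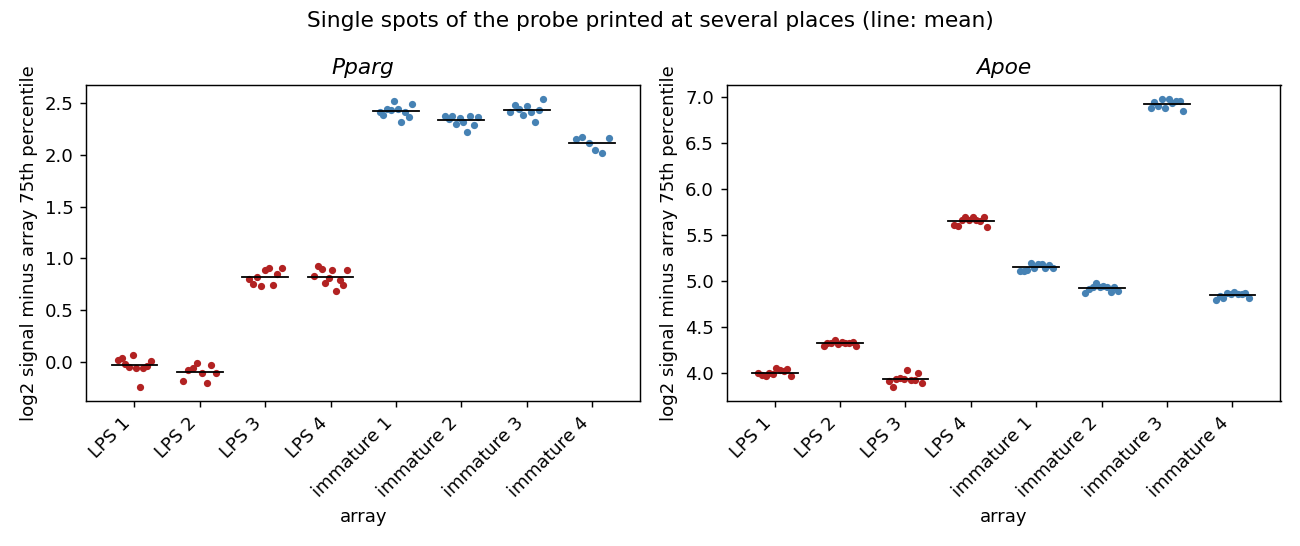
Log2 level of single spots of the Pparg and Apoe probes, with LPS arrays 1 to 4 at the left and immature arrays 1 to 4 at the right. Each probe is printed at 10 spots on an array, and spots flagged as outliers are left out, which leaves 6 to 10 for Pparg. The spots of an array lie close together, with SDs of 0.051 to 0.084 for Pparg and 0.021 to 0.050 for Apoe. LPS arrays 3 and 4 lie above LPS arrays 1 and 2 for Pparg, and LPS array 4 and immature array 3 lie above the rest of their groups for Apoe.

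The fatty acid binding proteins Fabp4 and Fabp5, small carriers of fatty acids inside the cell, both rose, in the direction opposite to Pparg. Fabp4 log2 levels were 3.09, 3.70, 2.95 and 3.72 on LPS arrays, against 0.84, 1.54, 2.09 and 0.95 on immature arrays. Every LPS array was above every immature array, with immature replicate 3 the highest of its group. The mean was 3.37 ± 0.40 with LPS and 1.36 ± 0.58 in immature cells, a log2 difference of 2.01 ± 0.31, or 4.03-fold higher (adjusted p = 0.000751, 95% interval 1.31 to 2.71). Its SD was larger than that of 90.6% of tested genes over LPS arrays and 94.6% over immature arrays. Fabp5 was steadier. Its log2 levels were 8.61, 8.59, 8.56 and 8.43 on LPS arrays, against 7.54, 7.63, 7.64 and 7.42 on immature arrays. The groups lay far apart for their spread, at means of 8.55 ± 0.08 and 7.56 ± 0.10. The log2 difference of 0.99 ± 0.08, or 1.99-fold higher, had the smallest adjusted p of the 10 genes (2.80e-05, 95% interval 0.81 to 1.17). Fabp4 and Fabp5 belong to a cluster of family members in the RefSeq gene order, with Pmp2, Fabp9 and Fabp12 between or beside them. None of these neighbours was above background on all arrays of a group, so they were not tested.

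Lpl and Pltp act on lipoproteins outside the cell and changed in opposite directions. Lpl encodes lipoprotein lipase, which frees fatty acids from circulating triglyceride. Its brighter probe had log2 levels of 6.23, 6.42, 6.29 and 6.22 on LPS arrays, against 7.45, 7.56, 7.20 and 7.07 on immature arrays. The arrays did not overlap, and the mean was 6.29 ± 0.09 with LPS and 7.32 ± 0.22 in immature cells. The log2 difference was −1.03 ± 0.12, or 2.04-fold lower (adjusted p = 0.000163, 95% interval −1.30 to −0.76). A second probe of the same transcript, A_52_P257812, read −1.04 ± 0.16 in the fit over all probes (adjusted p = 0.00109). Its log2 levels were 4.50 to 4.59 on LPS arrays and 5.25 to 5.92 on immature arrays, again without overlap. On both probes immature replicates 3 and 4 were lower than replicates 1 and 2.

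Pltp encodes phospholipid transfer protein, which moves phospholipid between lipoproteins. Its log2 levels were 1.91, 1.74, 1.83 and 2.05 on LPS arrays, against 1.14, 1.13, 1.28 and 1.04 on immature arrays. The groups did not overlap. The mean was 1.88 ± 0.13 with LPS and 1.15 ± 0.10 in immature cells, a log2 difference of 0.73 ± 0.09, or 1.66-fold higher (adjusted p = 0.000255, 95% interval 0.53 to 0.94).

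Apoe encodes apolipoprotein E, the lipoprotein component that cells secrete with exported cholesterol, and was the most variable of the 10 genes. Its log2 levels were 4.01, 4.33, 3.94 and 5.65 on LPS arrays, against 5.15, 4.92, 6.92 and 4.85 on immature arrays. LPS replicate 4 and immature replicate 3 were high for their groups, and LPS replicate 4 lay above 3 of the 4 immature arrays. The mean was 4.48 ± 0.80 with LPS and 5.46 ± 0.98 in immature cells, and the log2 difference of −0.98 ± 0.54 did not pass (adjusted p = 0.156, 95% interval −2.22 to 0.26). These SDs exceeded those of 98.3% of tested genes over LPS arrays and 99.0% over immature arrays. The probe is printed at 10 spots, which agreed within an array to an SD of 0.021 to 0.050. Without LPS replicate 4 the log2 difference was −1.37 (adjusted p = 0.0509), and without immature replicate 3 it was −0.49 (adjusted p = 0.323). Apoc1, the gene next to Apoe in the RefSeq order and another apolipoprotein, was also highest on immature replicate 3, with a log2 level of −0.76 there. Its levels were −3.72, −3.03, −4.04 and −2.95 on LPS arrays, against −2.67, −2.52, −0.76 and −3.23 on immature arrays, and its difference of −1.14 ± 0.51 did not pass (adjusted p = 0.0886). The summed macrophage markers were 8.90 on immature replicate 3, the highest of the 8 arrays, and 8.63 on LPS replicate 4, within the range of the other LPS arrays. Csf1r, the brightest of these markers and so the main part of the sum, was at 8.28 on immature replicate 3. The part of the macrophage markers in the Apoe values was not tested.

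Plin2, Scd1 and Scd2, the storage and desaturation genes, did not pass. Plin2 encodes perilipin 2, the protein coat of lipid droplets. Its log2 levels were 5.40, 5.35, 5.50 and 5.47 on LPS arrays, against 5.43, 5.55, 5.75 and 5.41 on immature arrays. The values overlapped within a narrow range, with a log2 difference of −0.11 ± 0.09 (adjusted p = 0.357, 95% interval −0.32 to 0.11). Plin2 passed as lower when arrays were scaled to their median (−0.28, adjusted p = 0.0391) or left unscaled (−0.31, adjusted p = 0.0256). Scd1 and Scd2 encode stearoyl-CoA desaturases, which turn saturated into monounsaturated fatty acids. Scd1 log2 levels were 1.77, 1.80, 2.23 and 1.45 on LPS arrays, against 1.49, 1.61, 1.80 and 1.94 on immature arrays. The LPS range enclosed the immature range, with a log2 difference of 0.10 ± 0.17 (adjusted p = 0.640, 95% interval −0.29 to 0.49) whose sign turned with the array median or no scaling. Scd2 log2 levels were 5.78, 5.77, 5.87 and 5.80 on LPS arrays, against 5.52, 5.43, 6.31 and 6.49 on immature arrays. The 4 LPS arrays lay within a narrow band inside the immature range, in which replicates 3 and 4 were high and replicates 1 and 2 low. The mean was 5.80 ± 0.05 with LPS and 5.94 ± 0.54 in immature cells, and the difference of −0.13 ± 0.24 did not pass (adjusted p = 0.654, 95% interval −0.68 to 0.41). The LPS SD of Scd2 exceeded that of 6.70% of tested genes and its immature SD that of 93.3%. The difference in spread was not tested. Scd3 and Scd4, the other desaturases of the same gene cluster, did not pass either, at 0.01 ± 0.10 and −0.17 ± 0.12.

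**Figure D3:**
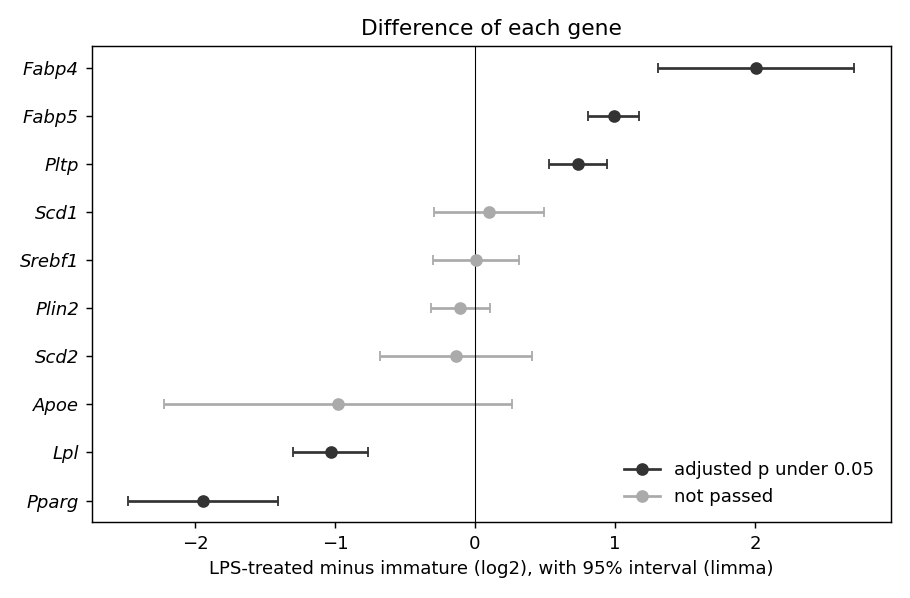
Log2 difference, LPS minus immature, of each of the 10 genes (points) with its 95% interval from limma (lines). Intervals of Pparg and Lpl lie below 0, those of Fabp4, Fabp5 and Pltp lie above 0, and the other 5 cross 0, Apoe with the widest interval (−2.22 to 0.26).

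Which arrays of a group were high differed from gene to gene. On immature replicate 3, Apoe lay 1.46 above its group mean, Fabp4 0.74 above and Scd2 0.37 above, while Lpl deviated by −0.12 from its mean. On LPS replicate 4, Apoe lay 1.17 above its group mean and Fabp4 0.35 above, while Scd1 deviated by −0.36. Pparg and Fabp4 also differed in which LPS arrays were high: Pparg was high on replicates 3 and 4, and Fabp4 on replicates 2 and 4. With immature replicate 3 left out, the same 5 genes passed, with log2 differences of −1.91 for Pparg, 2.26 for Fabp4, 1.02 for Fabp5, −1.07 for Lpl and 0.78 for Pltp.

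**Figure D4:**
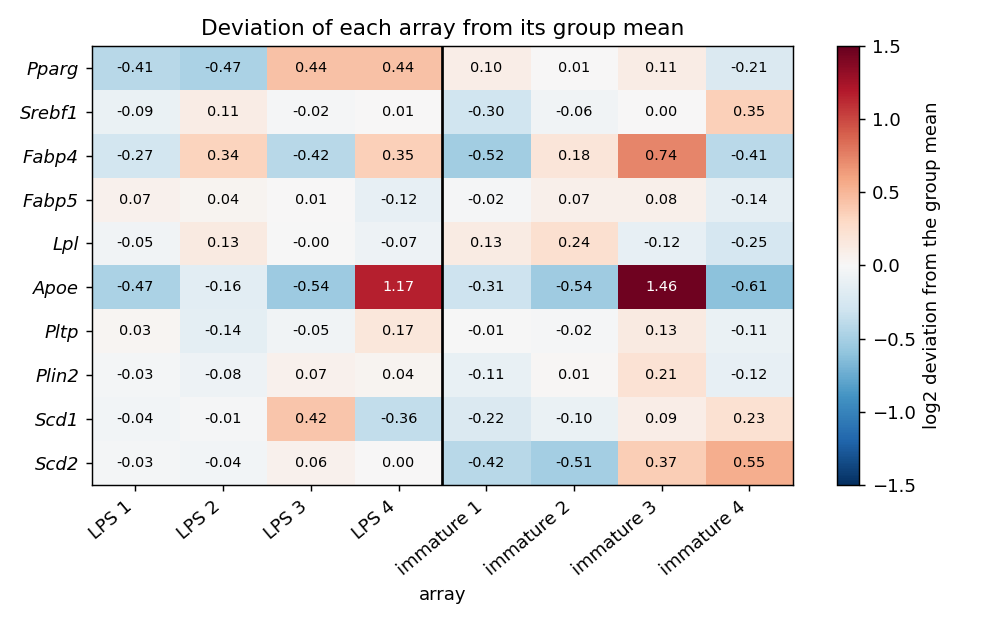
Deviation of each gene's log2 level from its group mean (colour) on LPS arrays 1 to 4 and immature arrays 1 to 4 (columns), with the 10 genes in rows. The largest deviations are those of Apoe, 1.46 on immature replicate 3 and 1.17 on LPS replicate 4.

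The genes whose profile was most like that of Pparg were found among 11939 genes above background on all 8 arrays, as those with the smallest root mean square difference between profiles centred on their own mean. They were Ston2 at 0.19, Cables1 at 0.21, Eps8 at 0.23, and Nhlrc1 and Etv5 at 0.25. Ston2 encodes an endocytic adaptor, Cables1 an adaptor that binds cyclin-dependent kinases, Eps8 an actin-capping protein, Nhlrc1 a ubiquitin ligase and Etv5 an ETS family transcription factor. Their log2 differences ran from −1.64 ± 0.29 for Cables1 to −1.78 ± 0.31 for Etv5. All 5, like Pparg, were higher on LPS replicates 3 and 4 than on LPS replicates 1 and 2, which the choice by likeness on these arrays favours. Etv5 read 3.27 and 3.26 on the former and 2.12 and 2.10 on the latter, against 4.29 to 4.77 on immature arrays. Of the other members the nearest was Lpl, ranked 487th at 0.58, and the farthest was Fabp4, ranked 11689th at 2.05. The 8 arrays share 1 slide, and the measure is a description.

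Beyond the 10 genes, 11 lists of related genes, none of which holds a member, covered 163 genes, of which 133 were tested. Of these, 44 rose, 35 fell and 54 did not pass, or 59.4% called against 56.1% of all tested genes. The share called was thus close to the background. The median over all tested genes shifted by −0.17 with the array median as scale and by −0.21 with no scaling, so list medians are read against 0.06 here and against −0.12 and −0.15 under those scalings.

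Among the receptors and coregulators, 5 of 15 tested genes rose and 2 fell, with a median log2 difference of 0.14 that turned to −0.03 with the array median and −0.06 with no scaling. Nr1h3, which encodes the LXRα receptor, had log2 levels of 1.09 ± 0.22 on LPS arrays and −0.58 ± 0.13 on immature arrays, a difference of 1.67 ± 0.12 (adjusted p = 1.62e-05). Nrip1, a nuclear receptor corepressor, rose by 1.33 ± 0.15. Ppargc1b, a coactivator of PPAR receptors, had a difference of −1.34 ± 0.24, which was −0.68 with the other background correction. The other PPAR receptors Ppara and Ppard did not pass, at 0.19 and 0.14, and the partner Rxra read −0.10.

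Known PPAR target genes moved both ways. Of 13 tested, 6 rose and 5 fell, with a median of 0.07 that was −0.11 with the array median and −0.14 with no scaling. Tgm2, a transglutaminase, rose by 1.73 ± 0.11. Aqp3, a glycerol and water channel, had log2 levels of −1.58 ± 0.44 on LPS arrays and 1.05 ± 0.53 on immature arrays, a difference of −2.63 ± 0.30. Hilpda, an inhibitor of triglyceride breakdown at lipid droplets, read 5.03, 5.06, 6.01 and 5.98 on LPS arrays, against 1.54, 1.55, 4.79 and 3.76 on immature arrays. Its groups did not overlap, but immature replicates 3 and 4 were far above replicates 1 and 2. The difference of 2.61 ± 0.73 (adjusted p = 0.0157) did not pass when replicates 1 and 2 were averaged (adjusted p = 0.0567), and was 3.24 without immature replicate 3. Cd36, a fatty acid scavenger receptor and PPAR target, did not pass at −0.12 ± 0.15.

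The list of fatty acid binding proteins also held Dbi, which is of another family. Of the list's 8 further tested genes 5 rose and 1, Dbi, fell, with a median of 0.39. The median kept its sign under every scaling tried, and with the array median or no scaling 2 rose and 1 fell. Fabp2, the intestinal form, rose by 1.83 ± 0.15 and Fabp3, the heart form, by 1.58 ± 0.18. Dbi, the acyl-CoA binding protein, fell by 0.35 ± 0.11 (difference −0.35, adjusted p = 0.0210). The call did not hold without LPS replicate 3 or without immature replicate 1, 2 or 4 (adjusted p of 0.0513 to 0.0571), or with replicates 1 and 2 averaged (adjusted p = 0.0876).

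Uptake genes rose in 6 of 14 and fell in 2, with a median of 0.07 that was −0.10 with the array median and −0.13 with no scaling. Acsl1, which activates fatty acids to acyl-CoA, had log2 levels of 6.42 ± 0.37 on LPS arrays and 4.05 ± 0.24 on immature arrays, a difference of 2.38 ± 0.20. Slc27a3, of the fatty acid transport protein family, rose by 2.08 ± 0.20. Acsl3, another acyl-CoA synthetase, had a difference of −1.16 ± 0.15.

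Fatty acid synthesis and desaturation was the list with the lowest median, −0.43, and 8 of 15 genes fell while 3 rose. The median stayed below 0 under every scaling tried. Fasn, the fatty acid synthase, had log2 levels of −2.93, −3.85, −3.50 and −3.45 on LPS arrays, against −0.90, −1.03, −1.86 and −0.87 on immature arrays. The groups were apart, with a difference of −2.26 ± 0.26 (adjusted p = 0.000180). Fasn read −1.29 with the other background correction (normexp), which also used other input intensities and an added offset of 50. Such an offset draws dim values together, but its part in this value was not tested. Fads2, a desaturase of polyunsaturated fatty acids, was above background on 1 of 4 LPS arrays and 4 of 4 immature arrays and was at least 2.34-fold lower (adjusted p = 0.0126), where dim values were set to the lowest level called above background on their array. Its arrays overlapped, at −3.98 on LPS replicate 3 and −4.11 on immature replicate 3. With normexp the log2 difference was −0.42, short of that bound, and the call was lost (adjusted p = 0.0537), as it was with replicates 1 and 2 averaged (adjusted p = 0.0577). Me1, the malic enzyme that supplies NADPH for synthesis, rose by 1.51 ± 0.25. Among the SREBP regulators 2 of 9 rose and 3 fell, at a median of 0.04 that was below 0 under 4 other scalings. Srebf2, the factor of cholesterol synthesis, had a difference of −0.88 ± 0.12 and Insig1, which retains SREBP in the endoplasmic reticulum, of −0.73 ± 0.17. Insig2 rose by 0.39 ± 0.14 (adjusted p = 0.0382), a call that most alternatives lost.

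For storage, genes of triglyceride and sterol ester synthesis rose in 5 of 15 and fell in 3, with a median of 0.08 that was −0.10 with the array median and −0.13 with no scaling. Dgat2, which makes triglyceride in its final step, had log2 levels of 5.49, 5.72, 5.30 and 6.31 on LPS arrays, against 1.56, 1.88, 2.34 and 2.20 on immature arrays. The groups were far apart, with a difference of 3.71 ± 0.24, or 13.1-fold higher (adjusted p = 9.57e-06). Dgat1, the other enzyme of that step, rose by 1.28 ± 0.14. Lpin1, a phosphatidate phosphatase, had a difference of −1.39 ± 0.33, which was −0.59 (adjusted p = 0.108) as the mean of its probes.

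Perilipin and lipid droplet genes rose in 3 of 10 and fell in 2, at a median of 0.07 that was −0.11 with the array median and −0.14 with no scaling. Besides Hilpda, Cideb, a droplet-associated protein, rose by 0.74 ± 0.21, a call lost with replicates 1 and 2 averaged (adjusted p = 0.0848). Plin4, of the perilipin family, was above background on 0 of 4 LPS arrays and 4 of 4 immature arrays and was at least 1.74-fold lower. With normexp its log2 difference was −0.36, also short of the bound, and still passed. Among lipases and their regulators 2 of 10 rose and 3 fell, and none rose under 5 other scalings. Mgll, the monoglyceride lipase, had a difference of −1.48 ± 0.26. Angptl4, a secreted inhibitor of lipoprotein lipase and a PPAR target, had log2 levels of 0.06 ± 0.05 on LPS arrays and 1.45 ± 0.28 on immature arrays, a difference of −1.38 ± 0.13. Gpihbp1, which anchors lipoprotein lipase, read 0.37 ± 0.13 (adjusted p = 0.0358), a call that most alternatives lost.

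LXR targets and genes of sterol efflux had the highest median, 0.65, and 7 of 12 rose while 1 fell. The median stayed above 0 under every scaling tried, at 0.45 with no scaling, where 5 rose and 3 fell. Abcg4, a sterol exporter, rose by 2.53 ± 0.38. Abca1, the exporter that loads lipid onto apolipoproteins, had log2 levels of 4.77 ± 0.23 on LPS arrays and 2.80 ± 0.62 on immature arrays, a difference of 1.98 ± 0.28. Lpcat3, which remodels phospholipids, had a difference of −0.32 ± 0.09 (adjusted p = 0.0180), lost with spike-in scaling (adjusted p = 0.0536), without immature replicate 2 (adjusted p = 0.0515) and with replicates 1 and 2 averaged (adjusted p = 0.0818). Fatty acid oxidation genes rose in 5 of 21 and fell in 7, at a median of −0.03. With the array median 3 rose and 8 fell, at −0.20, and with no scaling 1 rose and 8 fell, at −0.23. Etfb, an electron carrier subunit of that pathway, had a difference of −0.92 ± 0.09 and Acaa2, its last thiolase step, of −0.69 ± 0.07. Slc25a20, the mitochondrial carnitine carrier, rose by 0.90 ± 0.13. Among reference genes, Actb and Gapdh read 0.23 ± 0.06 and 0.20 ± 0.06. Both calls were lost with the array median, no scaling, spike-in scaling and quantile normalization, and Gapdh read −0.0080 with no scaling.

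**Figure D5:**
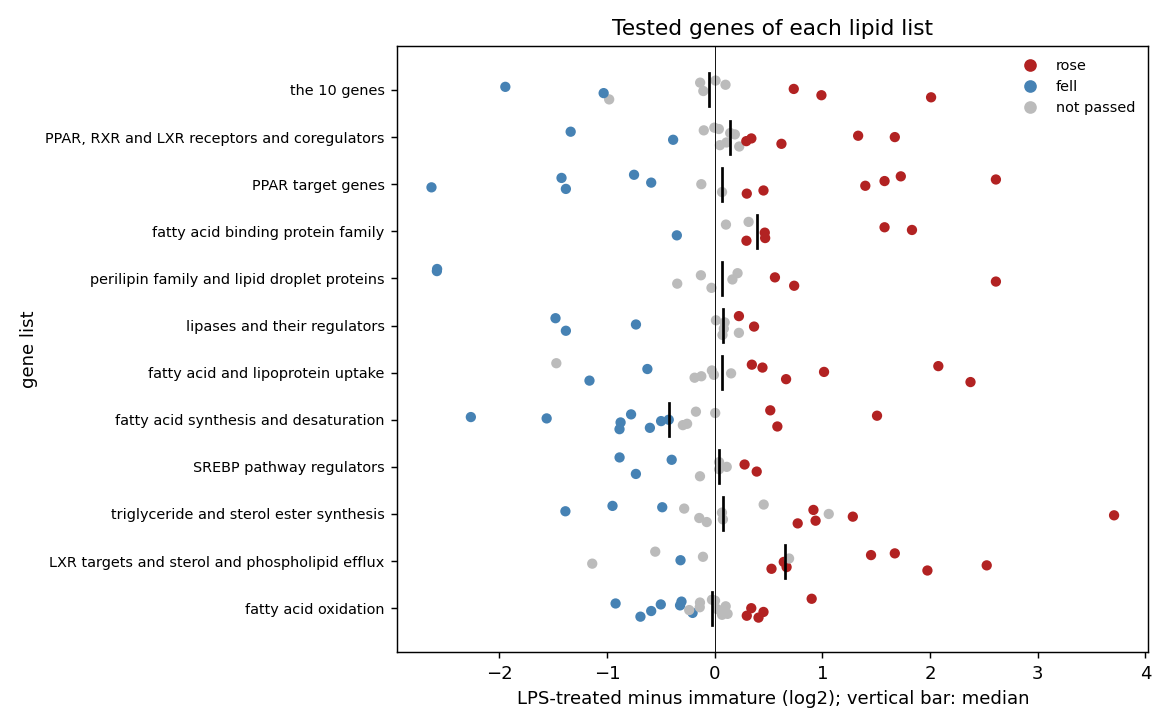
Log2 difference, LPS minus immature, of each tested gene (points, horizontal axis) in the 11 lists of related genes and, in the top row, in the 10 genes, with the list median as a bar. Medians run from −0.43 for fatty acid synthesis and desaturation to 0.65 for LXR targets and efflux, and the median of the 10 genes is −0.05.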

How the data were processed

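RNA of 4 LPS-treated and 4 immature samples was taken up in TRIzol, cleared of DNA with DNase I and tagged with Cy3 by an Agilent kit, per the labels' protocols. Spots were quantified with Agilent Feature Extraction 11.0.1.1, per the submitters' processing notes. The deposited processed signal is an intensity after the software's background subtraction, with no scaling from array to array. Per the file headers, there are also deposited median intensities of spot and background, a background-subtracted intensity, and other columns of 0 or 1 flags.

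Outlier spots (122 to 206 of 59305 per array) were dropped, repeat spots of 1 probe were combined as their mean log2 value, and each array was centred on the 75th percentile of its spots other than controls. Of 55681 probes, 27509 matched a RefSeq gene by transcript accession. Each gene took its brightest probe (5509 of 20884 genes had several) and entered the test if that probe exceeded background clearly on all 4 arrays of a group. Groups were compared with lmFit and eBayes (limma 3.58.1, R 4.3.3), two-sided, with Benjamini-Hochberg adjustment over 12706 genes and calls at an adjusted p of 0.05. The procedure was tested on simulated data. Figures used matplotlib 3.10.9. No array had a saturated spot.

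The 10 genes, the lists and the tests were chosen with earlier results of these data known. Named were all members, the 2 called genes of each list with the largest change in its commoner direction and the 1 in the other, the 5 genes most like Pparg, and Actb, Gapdh, Itgax, H2-Aa, Adgre1, Csf1r, Adipoq and Cd36 whatever their result. Others were named after their values were seen. Ear2, Siglecf, Marco, Flt3, Ccr7, Cd209a, Pdgfrb, Retn, Dcn and Lepr were named as markers. Apoc1, Scd3 and Scd4 were named as neighbours of members, and Ppara, Ppard and Rxra as relatives of Pparg. The 19 alternatives changed the background correction, scaling, filter, probe summary, block, spread model and arrays used. The array design's genome build differs from that of the RefSeq table, so only the promoter windows carry positions.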

Additional observations from a re-analysis of the deposited data

Results flagged for a closer look

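A sample stood far from the other 3 of its group, by Dixon's ratio above its 95% critical value, in 6 of 108 groups of 4 arrays over 54 genes, where chance marks about 1 in 20. Among the 10 genes this was Apoe on immature replicate 3, at a log2 level of 6.92 against 4.85 to 5.15 on the other immature arrays. Fasn on the same array was at −1.86, against −1.03 to −0.87 on the others, and Insig1 there was at −1.12, against −0.71 to −0.66. Nr1h3 on immature replicate 1 was at −0.77, against −0.53 to −0.50. Cd36 on LPS replicate 3 was at 3.64, against 3.23 to 3.27, and Plin4 on LPS replicate 4 was at −5.44, against −6.32 to −6.22, where no LPS array was above background.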

How the results depend on the processing

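Pparg, Fabp4, Fabp5, Lpl and Pltp kept their direction and their call under all 19 alternatives. Over the alternatives that left out no array, Pparg ranged from −2.15 to −1.78, Fabp4 from 1.80 to 2.01, Fabp5 from 0.78 to 1.01, Lpl from −1.24 to −0.98 and Pltp from 0.53 to 0.75. Leaving out 1 array at a time gave −2.09 to −1.79, 1.84 to 2.26, 0.95 to 1.03, −1.11 to −0.95 and 0.68 to 0.78 for the same genes. The cause of the changes listed next was not tested. With the array median as scale, Plin2 passed at −0.28, Scd1 was −0.074, Srebf1 was −0.17 and 2615 genes rose in all. With no scaling these were −0.31, −0.11, −0.20 and 2428, Gapdh was −0.0080, and 27 related genes rose against 44. Calls that rose made up 38.5% and 35.3% of all calls under these scalings, against 56.0%. Srebf1 was −0.043 with scaling to detected probes, −0.012 to spike-ins, −0.032 with quantile normalization and −0.054 with replicates 1 and 2 averaged. With normexp Fabp2 was 1.12 and Ston2 −1.13, and as the mean of its probes Nhlrc1 was −1.13. With no filter on dim probes 10759 genes passed, 7628 of them higher, in a larger set of genes tested. Leaving out 1 array at a time gave −0.092 to 0.13 for Srebf1, −0.038 to 0.22 for Scd1, −0.30 to 0.048 for Scd2, −1.37 to −0.49 for Apoe and 6182 to 7898 genes called in all.

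Same-numbered samples correlated at 0.19, 0.02, 0.05 and −0.10 in their deviations from the group means. Only LPS replicate 1 was closest to its own number. With so few arrays in a group, these correlations cannot decide whether same-numbered samples share an animal or culture, and the labels do not say. With the replicate number as a block, 5 of the 10 genes passed, as without it, and 6606 genes in all against 7124. Averaging replicates 1 and 2 of each group left 5425. The normexp alternative used the median spot intensity, since mean intensities were not among the columns used here. Dim probes limit Fads2 and Plin4, which have only bounds with LPS.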
